A study of Homo sapiens with 5 samples.

Results

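The ends of the human autosomes were examined for methylated DNA in K562, a chronic myeloid leukaemia cell line. A peak belonged to an end when it started below 3 Mb on its chromosome, or when it ended within 3 Mb of the largest peak end seen on that chromosome in any list. Of 23030 peaks on the 22 autosomes, 1866 (8.10%) lay in these end zones and 21164 in the interior, out of 23350 peaks on all chromosomes. Both zones were held in 5 libraries made by immunoprecipitation of methylated DNA and sequencing (MeDIP-seq), 1 per culture. WT bulk was an unedited wild-type culture and WT transfected a wild-type culture that had been through transfection. MT1, MT2 and MT4 were lines with mutated DNMT3A, which the labels' protocols call clones; the mutation itself is not given in the labels. All 5 are K562 and were grown in the same medium. None is a repeat of another culture, so p-values measure only the spread between these libraries.

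DNMT3A places methyl groups on cytosines that were unmethylated before, and DNMT1 copies existing methylation when DNA is replicated. The outermost stretch of most human chromosome arms, the subtelomere, lies beside the telomere repeats. It is built in part from blocks that are repeated at several chromosome ends, and further in it gives way to gene-rich DNA with many CpG sites. Methylated DNA is captured more readily where methylated CpG sites are dense. A MeDIP peak marks a stretch with more captured fragments than its surroundings, and it does not give the fraction of methylated molecules.

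The lists differed in length. WT bulk had 532 end peaks, WT transfected 377, MT1 240, MT2 94 and MT4 623. Over all chromosomes the same lists held 6213, 4470, 2842, 1426 and 8399 peaks. Where a list has no peak, the site stayed below the caller's score limit; less methylation and poorer sampling of that library cannot be told apart there. Coordinates are hg19, counted from 1.

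Methylated peaks were more crowded near chromosome ends than in the interior in every library. The end zones make up 132 Mb, 4.59% of the length spanned, and held between 6.68% and 8.68% of the autosomal peaks of a list. WT bulk had 4.03 peaks per Mb in end zones and 2.04 in the interior, a ratio of 1.98. WT transfected had 2.86 and 1.47, a ratio of 1.94. MT1 followed with 1.82 and 0.935, a ratio also of 1.94. The contrast was smaller in MT4, with 4.72 and 2.79 peaks per Mb (ratio 1.69), and smallest in MT2, with 0.712 and 0.479 (ratio 1.49). The log2 ratio averaged 0.85 ± 0.18 (SD, n = 5) and was positive in 5 of 5 libraries (exact sign-flip permutation test over libraries, two-sided, p = 0.0625, the smallest that 5 libraries allow; Benjamini-Hochberg adjusted over 5 measures, p = 0.0781). The short-arm ends of chromosomes 13, 14, 15, 21 and 22 held no peak in any library. These arms carry ribosomal gene arrays and satellite DNA and are not assembled in this genome build. Without these 5 ends the mean log2 ratio was 1.02, over the 39 ends that remained. The interior length was not changed for this and still held the rest of these unassembled arms, which raises the ratio. The same interior density underlies the values by distance given below. It was 0.50 among the best 1426 peaks of each list and 0.56 among peaks at or above the median score of all peaks.

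The excess was steepest at the tip. In the outermost 100 kb of the 39 ends, WT bulk held 51 peaks, or 13.1 per Mb, which was 6.42 times its interior density. The same stretch held 39 peaks in WT transfected (6.80 times), 26 in MT1 (7.13 times), 16 in MT2 (8.57 times) and 62 in MT4 (5.70 times). Density then fell steeply. Between 0.25 and 0.5 Mb it was 3.02 times the interior value in WT bulk, 2.65 times in WT transfected, 2.63 times in MT1, 1.29 times in MT2 and 2.43 times in MT4. From 0.5 Mb inward density moved up and down between bins, within 1.43 to 2.26 times the interior value in WT bulk up to 3 Mb and within 0.75 to 1.93 times in MT2. Between 5 and 6 Mb all 5 libraries lay between 1.04 and 1.2 times the interior value.

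**Figure D1:**
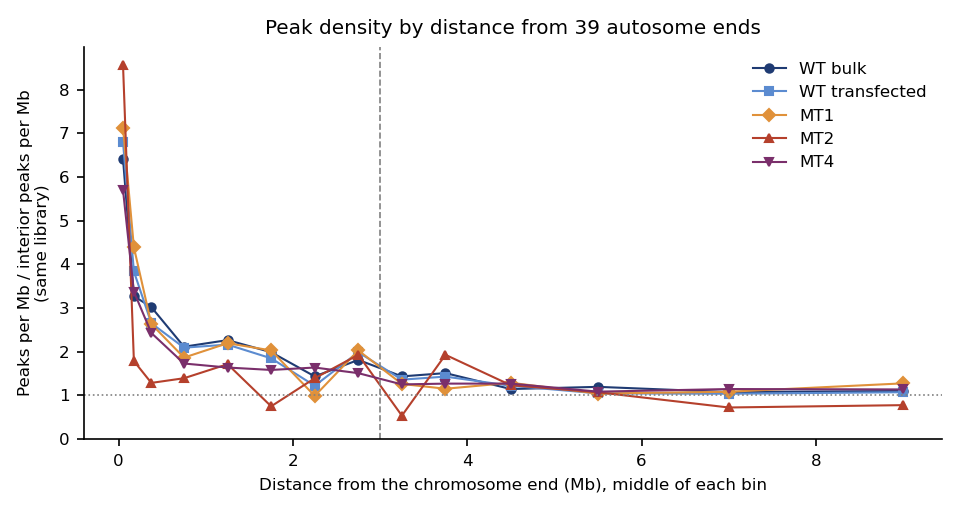
Peaks per Mb at 39 autosome ends, divided by the interior density of the same library (vertical axis), against distance from the end in Mb (horizontal axis); each line is 1 library, each point 1 distance bin, the dashed line marks 3 Mb and the dotted line the interior density. All 5 lines start between 5.70 and 8.57 times the interior density and fall to between 1.04 and 1.2 times at 5 to 6 Mb.

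Long-arm ends were counted from the outermost peak, so that a peak at distance 0 exists there by definition. How far that peak lies from the last base of the chromosome was not measured, so the long-arm tip need not be the chromosome end. The peak that sets the end of each long arm was left out. The outermost 100 kb of the 22 long arms then held 25 peaks in WT bulk and 22 in WT transfected. MT1, MT2 and MT4 held 13, 6 and 29. In that order of libraries these are 5.58, 6.80, 6.32, 5.70 and 4.73 times the interior densities. On the 17 short arms, where distance was counted from the first base of the chromosome, the values were 4.91, 6.0, 7.55, 11.1 and 5.06 times, from 17, 15, 12, 9 and 24 peaks. Crowding at the tip was present on the short arms in every library, with few peaks behind the MT2 values. On the long arms, peaks of other libraries at the sites that set the ends were still counted. Of those sites, 12 were in at least 2 libraries, so the long-arm values remain partly set by the definition.

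Counts varied from strip to strip around the 3 Mb limit. The strip from 2 to 2.5 Mb held 57 peaks in WT bulk, 35 in WT transfected, and 18, 13 and 89 in MT1, MT2 and MT4. The strip from 2.5 to 3 Mb held 72 peaks in WT bulk, 57 in WT transfected, and 37, 18 and 82 in MT1, MT2 and MT4, and that from 3 to 3.5 Mb held 57, 39, 23, 5 and 68 in the same order. From 3.5 to 4 Mb the counts were 60, 41, 21, 18 and 69, so that the low count of MT2 just outside the limit was not kept. Over the whole adjacent belt from 3 to 6 Mb, density was 2.59 per Mb in WT bulk against 4.55 over the 39 end zones. The corresponding pairs were 1.79 and 3.22 in WT transfected, 1.1 and 2.05 in MT1, 3.36 and 5.32 in MT4, and 0.564 and 0.803 in MT2. The end zone was the denser of the 2 in each library.

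End peaks were wider than interior peaks, yet they scored lower. The score is the peak caller's own value as deposited, and it was turned into a percentile within each list. Median width was 1639 bp at the ends and 1244 bp in the interior in WT bulk, 1437 and 1175 bp in WT transfected, 1609 and 1329 bp in MT1, and 1391 and 1072 bp in MT4. In MT2, whose peaks were wide everywhere, the medians were 1829.5 and 1796.5 bp. The mean difference was 258 ± 136 bp (SD, n = 5), positive in 5 of 5 libraries (exact sign-flip permutation test, two-sided, p = 0.0625; adjusted p = 0.0781). It was 106 bp (exact p = 0.25) when only the outer 1 Mb was taken as the end zone, and 98.6 bp when every list was limited to its best 1426 peaks. The width was not particular to the outer 3 Mb. Peaks of the belt from 3 to 6 Mb had medians of 1403 bp in WT bulk, 1374 bp in WT transfected, and 1514, 2169 and 1190 bp in MT1, MT2 and MT4, above the whole interior in each library and, in MT2, above the end peaks.

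The median score percentile of end peaks was 43.1 in WT bulk, 40.9 in WT transfected, 41.8 in MT1, 44 in MT4 and 39.1 in MT2, where interior peaks had medians from 50.6 to 51.1. End peaks were thus below the middle of every list. In the belt from 3 to 6 Mb the medians were 45.9 in WT bulk, 48.2 in WT transfected, and 55.4, 48.4 and 42.7 in MT1, MT2 and MT4. The mean difference was -9.11 ± 1.94 percentile points (SD, n = 5), negative in 5 of 5 libraries (exact sign-flip permutation test, two-sided, p = 0.0625; adjusted p = 0.0781). Covered length rose more than peak number. End peaks covered 7.68 kb per Mb in WT bulk and interior peaks 2.93, and the pairs were 4.69 and 2.0 in WT transfected, 3.24 and 1.41 in MT1, 8.05 and 3.54 in MT4, and 1.45 and 0.936 in MT2.

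**Figure D2:**
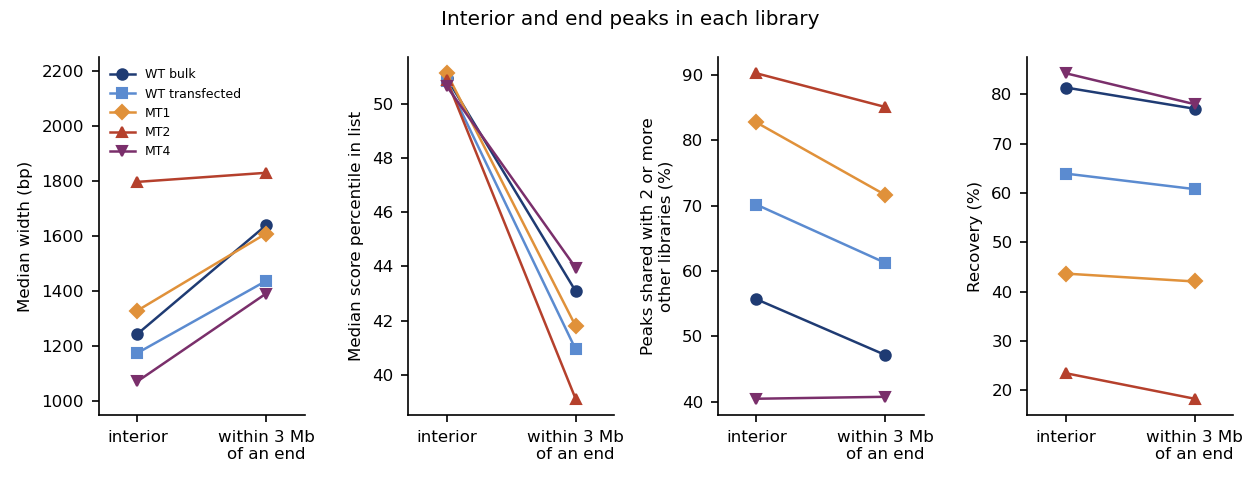
Median peak width in bp, median score percentile within the list, percentage of peaks overlapping a peak of 2 or more other libraries, and recovery in percent, for interior peaks and for peaks within 3 Mb of an end; each line joins the 2 values of 1 library, and the vertical axes do not start at 0. Width rises and score percentile and recovery fall towards the ends in all 5 libraries, while sharing falls in 4 of 5.

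Wide interior peaks scored above the middle of their list, and wide end peaks did not. Peaks of 2000 bp or more formed 36.7% of end peaks and 16.2% of interior peaks in WT bulk, 26.5% and 13.2% in WT transfected, 32.1% and 17.8% in MT1, 27.9% and 12% in MT4, and 43.6% and 38.2% in MT2. Such wide peaks had a median percentile of 44.6 at the ends and 63.3 in the interior in WT bulk. The same pair was 45.2 and 70.2 in WT transfected, 42.8 and 66.5 in MT1, 40.2 and 64.5 in MT4, and 47.5 and 59.99 in MT2. Wide end peaks scored lower than wide interior peaks in each list. Narrow end peaks, under 1000 bp, scored no lower than narrow interior peaks: their median percentile was 31.9 at the ends and 31.6 in the interior in WT bulk, 42.2 and 33.9 in WT transfected, 37.7 and 32.7 in MT1, 35.9 and 35.2 in MT4, and 55.1 (8 peaks) and 36.0 in MT2.

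The same pattern was seen from the side of the score. Each list was cut by score percentile into 4 equal bands. In the lowest band of WT bulk, end peaks had a median width of 1595 bp and interior peaks 1021 bp, whereas in the highest band the medians were 1703 and 1557 bp. Its middle bands gave 1524 and 1132 bp, then 1690 and 1279 bp. In WT transfected the lowest band gave 1495 and 970 bp and the highest 1640 and 1504.5 bp. MT1 gave 1523 and 1122 bp in the lowest and 1681.5 and 1598 bp in the highest band, and MT4 1336.5 and 808 bp, then 1531.5 and 1397 bp. The gap between zones was smallest in the highest of the 4 bands in these 4 libraries, and end peaks were the wider in their middle bands too. MT2 departed from this, with 1633 and 1589 bp in the lowest band and 1859 and 2017 bp in the highest, from 28 and 17 end peaks. The change of the gap over the bands was not tested.

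**Figure D3:**
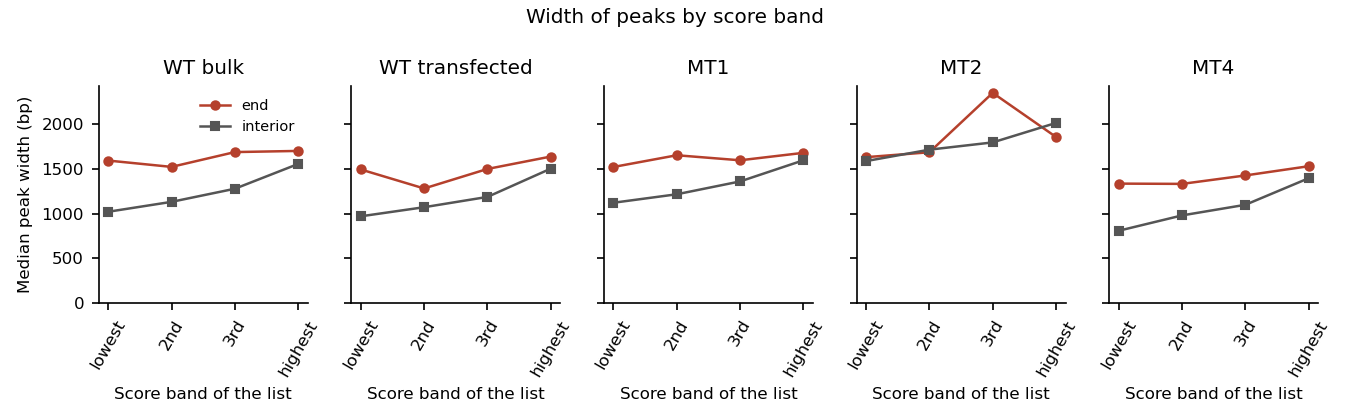
Median peak width in bp (vertical axis) by score band of the whole list (horizontal axis), with 1 panel per library, for end peaks (circles) and interior peaks (squares). In WT bulk the medians in the lowest band are 1595 bp at the ends and 1021 bp in the interior, and in the highest band 1703 and 1557 bp; MT2 shows no such narrowing of the gap.

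The tip and the rest of the end zone differed from each other. Between 28.2% and 30.8% of a library's end peaks lay in the outer 0.5 Mb. These tip peaks were narrower than the end peaks further in, with medians of 1426.5 against 1702.5 bp in WT bulk, 1279.5 against 1530 bp in WT transfected, 1260.5 against 1709.5 bp in MT1, 1696 against 1859 bp in MT2 and 1369 against 1421 bp in MT4. They also scored higher. Their median percentile was 44.5 against 42.8 in WT bulk, 49.8 against 39.5 in WT transfected, 54.1 against 38.5 in MT1, 64.4 against 36.5 in MT2 and 51.0 against 41.4 in MT4. Width was not uniform within the outer 0.5 Mb. The outermost 100 kb had medians of 1037 bp in WT bulk, 1045 bp in WT transfected, and 970.5, 1472 and 988.5 bp in MT1, MT2 and MT4. Between 0.25 and 0.5 Mb they were 1895.5, 1678.5, 1840.5, 2440 and 1775 bp in the same order, wider than the stretch from 0.5 to 3 Mb in all 5 libraries. The median percentiles of that bin were 41.9, 32.9, 52.8, 56.1 and 46.5. The outermost 100 kb in MT2 had the highest median percentile of any distance bin, 80.8 over 16 peaks.

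Short-arm and long-arm ends gave no common order. Over the 17 short-arm ends with peaks and the 22 long-arm ends, density was 3.67 and 5.23 per Mb in WT bulk, 2.82 and 3.53 in WT transfected, 2.08 and 2.03 in MT1, 4.37 and 6.06 in MT4, and 0.745 and 0.848 in MT2. Long arms were thus denser in all libraries except MT1.

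The ends were filled very unevenly. Merging overlapping peaks of the 5 lists gave 963 regions at the ends, 8.69% of the 11083 autosomal regions. A median end, among the 39 with peaks, held 25 regions, with a range from 3 to 63. All 951 autosomal windows of the same 3 Mb length were ranked by number of regions. Of the 44 end windows, 19 (43.2%) had rank 95 or better, with ties at rank 95 included. Of the 907 interior windows, 81 (8.93%) did so. The median was 22 regions in the end windows and 8 in the interior windows.

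The long-arm end of chromosome 7 (155937667 to 158937666) was the richest, with 63 regions. It held 34 peaks in WT bulk, 16 in WT transfected, and 10, 3 and 45 in MT1, MT2 and MT4. It was followed by the long-arm end of chromosome 21 (45095259 to 48095258) with 57 regions, from 35, 21, 11, 2 and 32 peaks in the same order of libraries. In number of regions those ends held ranks 3 and 6 among all 951 windows. Next was the long-arm end of chromosome 3 (194948147 to 197948146) with 46 regions, from 25, 20, 12, 8 and 30 peaks. Chromosome 19 is known for its KRAB zinc finger genes, and its long-arm end (56118789 to 59118788) had 41 regions, with 24, 23, 9, 7 and 31 peaks. As many regions lay at the long-arm end of chromosome 6 (168033485 to 171033484), where the counts were 20, 20, 13, 3 and 35. The short-arm end of chromosome 1 (1 to 3000000) had 40, with 26, 19, 12, 8 and 25 peaks.

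These 6 ends held 29.9% of all end regions. At the poor end of the order, the short-arm end of chromosome 3 had 3 regions, and the short-arm end of chromosome 20 and the long-arm end of chromosome 4 had 4 each. The short-arm end of chromosome 11, which carries the imprinted genes IGF2 and H19, had 21 regions, and the short-arm end of chromosome 16, which carries the alpha-globin genes, had 30. Which regions lie in those genes was not analysed here. In WT bulk, WT transfected and MT4 none of the 39 ends was empty, whereas 4 were empty in MT1 and 9 in MT2.

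**Figure D4:**
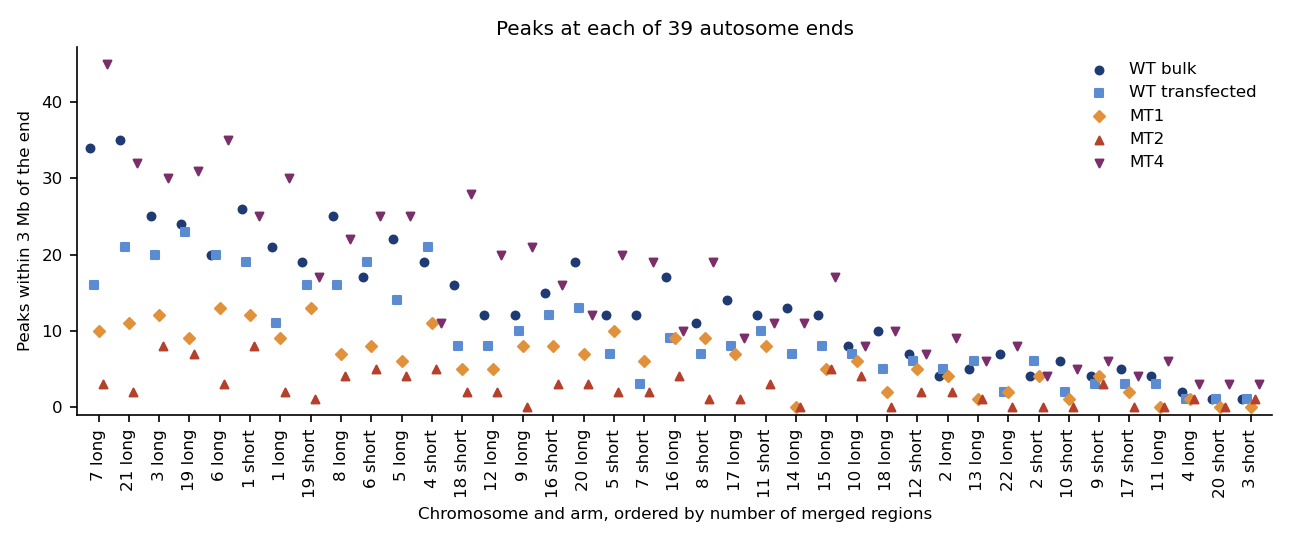
Number of peaks within 3 Mb of each of 39 autosome ends (vertical axis) in the 5 libraries (symbols), with the ends ordered by their number of merged regions (horizontal axis: chromosome and arm). The long-arm end of chromosome 7 is the richest, with 45 peaks in MT4 and 3 in MT2, and the short-arm end of chromosome 3 the poorest.

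End peaks were shared between libraries less often than interior peaks in 4 of 5 lists. A peak overlapped a peak of at least 2 other libraries in 47.2% of WT bulk end peaks (95% Wilson interval 43.0 to 51.4%) and 55.7% of interior peaks (54.4 to 57.0%). In WT transfected the shares were 61.3% (56.3 to 66.1%) and 70.2% (68.7 to 71.6%), and in MT1 71.7% (65.7 to 77.0%) and 82.7% (81.2 to 84.2%). The shares were 85.1% (76.5 to 90.9%) and 90.3% (88.5 to 91.7%) in MT2. MT4, the longest list, had 40.8% (37.0 to 44.7%) at the ends and 40.5% (39.4 to 41.6%) in the interior. The intervals cover counting error only. The mean difference was -6.67 ± 4.43 percentage points (SD, n = 5; exact sign-flip permutation test, two-sided, p = 0.125; adjusted p = 0.125). It was -2.76 points for the outer 1 Mb and -11.1 points at equal list length.

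Recovery asks the reverse. It takes the regions that 2 or more of the remaining libraries hold, and gives the percentage of them found in the library in question. WT bulk recovered 249 of 323 end regions (77.1%) and 81.4% of interior regions. WT transfected recovered 60.8% and 63.9%, MT1 42.1% and 43.7%, MT2 18.3% and 23.4%, and MT4 78.0% and 84.3%. Each library recovered fewer end regions than interior regions, by 4.10 ± 1.81 percentage points on average (SD, n = 5; exact sign-flip permutation test, two-sided, p = 0.0625; adjusted p = 0.0781). These gaps between zones were small beside the gaps between libraries. A lower score leaves a peak nearer to the score limit, and end peaks had the lower scores in all 5 lists. The part of this in sharing and recovery was not tested. Within the lowest score band, sharing was lower at the ends than in the interior in WT bulk (16.8% and 23.1%), WT transfected (32.5% and 42.1%) and MT1 (53.6% and 65.3%). It was higher at the ends in MT2 (82.1% and 78.7%) and MT4 (20.3% and 11.7%).

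Of the 963 end regions, 516 (53.6%) had a peak in a single library, 181 in 2, 133 in 3, 80 in 4 and 53 (5.50%) in all 5. Among interior regions, 49.4% had a peak in a single library. Without MT2, 118 end regions were in all of the other 4 lists. Regions in all 5 libraries made up 7.47% of all autosomal regions and 7.66% of interior ones. MT4 alone held 245 end regions (25.4%), WT bulk alone 157 (16.3%), WT transfected alone 79 (8.20%), MT1 alone 30 (3.12%) and MT2 alone 5 (0.519%). The interior shares in the same order were 30.5%, 11.6%, 4.88%, 1.82% and 0.642%. In the outermost 100 kb, 9 of 87 regions (10.3%; 95% Wilson interval 5.54 to 18.5%) were in all 5 libraries, and between 0.5 and 3 Mb 35 of 709 (4.94%; 3.57 to 6.79%). These intervals overlap.

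At regions common to all 5 libraries, end peaks had larger medians of width than interior peaks in every library. The medians over 53 end and 775 interior regions were 1890 and 1665 bp in WT bulk, 1673 and 1522 bp in WT transfected, 1702 and 1550 bp in MT1, 1703 and 1599 bp in MT4, and 1973 and 1927 bp in MT2. Their median score percentile was lower at the ends in 4 libraries: 87.5 and 89.9 in WT bulk, 78.7 and 85.5 in WT transfected, 56.6 and 62.1 in MT2, and 89.5 and 92.0 in MT4. MT1 had 79.7 and 79.2. The gap in width was smaller than over all peaks in every library except MT2.

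The strongest end peak of every library was at one site, on the long arm of chromosome 4 from 190942042 to 190944403. Near this end lies the D4Z4 macrosatellite, a repeat array whose loss of methylation is tied to facioscapulohumeral muscular dystrophy; whether the site lies in the array was not analysed here. The region ended 89.5 kb from the outermost peak. It scored 3100 in WT bulk, WT transfected, MT1 and MT4 and 2509.94 in MT2. No peak of WT bulk, MT1 or MT4 scored higher, 1 of WT transfected did and 2 of MT2. Other peaks of WT bulk, MT1 and MT4 shared the score of 3100, which put the site at percentiles 99.98, 99.95 and 99.99 rather than alone at the top. Equal scores of 3100 are not evidence of equal signal, and 3100 was not the highest score in WT transfected.

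Next among the common end regions was one on the short arm of chromosome 18 from 111328 to 113293. Its scores were 1388 in WT bulk, 1338 in WT transfected, and 945, 510 and 1526 in MT1, MT2 and MT4. Scores of another, on the long arm of chromosome 2 from 243152707 to 243154402, were 395, 433, 376, 281 and 545 in the same order. It ended 6.48 kb from the outermost peak of the chromosome. The next 2 were also at the very tip. One lay 5.73 kb from the outermost peak of chromosome 15 (102505304 to 102506634) and the other 17 kb from the start of chromosome 1 (16963 to 17812).

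The remaining 5 of the 10 strongest common regions had mean percentiles from 94.9 down to 91.9. All were on short arms. Chromosome 1 had a pair (2614606 to 2616969 and 2583602 to 2586747), and 1 each was on chromosome 8 (1948971 to 1951853), chromosome 6 (390904 to 394129) and chromosome 18 (10454 to 13840). Such strong sites were few: peaks above percentile 90 of their list formed 5.83% of end peaks in WT bulk, 6.37% in WT transfected, 6.67% in MT1, 7.87% in MT4 and 9.57% in MT2, against 9.89% to 10.5% in the interior.

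The widest end regions were of the opposite kind. The widest of all lay on the short arm of chromosome 5 from 1073316 to 1080342, measured 7027 bp, and had a peak in MT4 alone with a score of 102. It was followed by one of 6872 bp on chromosome 21 (46930990 to 46937861), in WT bulk alone with a score of 99.9. The next were of 6587 bp on chromosome 1 (1683571 to 1690157), in MT4 alone with a score of 94, and of 6123 bp on chromosome 9 (138947910 to 138954032), in MT4 alone with a score of 111. The last of the 5 measured 6081 bp, on chromosome 8 (144869420 to 144875500), and had peaks in WT transfected (97.4) and MT4 (102). The lowest score kept in any list was 90, so all 5 were weak peaks. None of them was within 1 Mb of the end.

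Regions at distance 0 define the long-arm ends of their chromosomes, and 12 of them were in at least 2 libraries. The 5 named here were taken from these ties in the text order of chromosome names. The one on chromosome 10 (135523217 to 135524466) was strong where present, with scores of 207 in MT1 and 380 in MT4, and had no peak in the other 3 lists. Chromosome 10 carries a D4Z4-like array at this end as well. The others, on chromosomes 1 (249238919 to 249239412), 11 (134252414 to 134254501), 12 (133812281 to 133813498) and 14 (106173178 to 106173903), scored from 94 to 145 and were in WT bulk and MT4, with WT transfected added on chromosomes 11 and 14.

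The study set wild-type against mutated cultures, and the question here was whether the end zones set the genotypes apart. At the 3 Mb limit and over the full lists, they did not separate them on any of 5 measures. Under some other settings they did, as given in the closing section. End peaks made up 8.68% of autosomal peaks in WT bulk (95% Wilson interval 8.0 to 9.42%) and 8.54% in WT transfected (7.75 to 9.40%). The shares were 8.55% in MT1 (7.57 to 9.64%), 6.68% in MT2 (5.49 to 8.10%) and 7.53% in MT4 (6.98 to 8.12%). MT1 lay between the 2 wild-type cultures. The mutated mean was 7.58 ± 0.94% (SD, n = 3), against 8.61 ± 0.10% (SD, n = 2) for wild type, which differ by -1.03 percentage points (mutated minus wild type; exact permutation test, two-sided, p = 0.4; adjusted over 5 measures, p = 0.75). A design of 2 against 3 libraries cannot give a p below 0.2.

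The shares were also computed over the best 1426 peaks of each list, which changes list length and score range at once. In these shortened lists the ends held 6.79% in WT bulk, 5.75% in WT transfected, 7.0% in MT1, 5.72% in MT4 and 6.68% in MT2. The spread between the 5 was then narrower, and the difference between genotypes turned to 0.196 percentage points. For the log2 density ratio the mutated mean was 0.76 ± 0.19 and the wild-type mean 0.97 ± 0.02 (exact permutation p = 0.4, adjusted p = 0.75). For the width difference between zones the means were 211 ± 155 and 328.5 ± 94 bp (exact permutation p = 0.6, adjusted p = 0.75). The score percentile difference was -9.26 ± 2.54 and -8.88 ± 1.43 (exact permutation p = 1), and the sharing difference -5.31 ± 5.69 and -8.71 ± 0.27 percentage points (exact permutation p = 0.6, adjusted p = 0.75).

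Of the end regions, 31 were held by WT bulk and WT transfected while MT1, MT2 and MT4 all lacked a peak, a share of 3.22% (95% Wilson interval 2.28 to 4.53%). Over all autosomal regions the share was 2.71%. The reverse class, all 3 mutated lines and neither wild-type culture, had no member at the ends, where 0.0722% of all autosomal regions belonged to it. That background corresponds to less than 1 region among 963, and a count of 0 allows a share of up to 0.397% by the Wilson interval. Both counts depend on the lists. Over the best 1426 peaks of each list, 5 end regions were wild-type-only and 4 mutant-only. When single lists were left out, the wild-type-only class had 110 members without WT bulk, 106 without MT4 and 188 without WT transfected. Leaving out MT2 gave 17 mutant-only regions, and leaving out any other single library gave at most 4. Shares over all autosomal regions were not computed for shortened or omitted lists, so these counts have no background beside them. The wild-type-only end regions had a median percentile of 34.2 and a median width of 1901 bp. Wild-type-only interior regions had medians of 38.7 and 1203 bp. All 181 end regions with a peak in 2 libraries had medians of 36.8 and 1757 bp, so low score and large width were not particular to the wild-type-only ones.

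The strongest wild-type-only end region was on the long arm of chromosome 3 from 196324721 to 196326621, with scores of 125 in WT bulk and 145 in WT transfected and a mean percentile of 58.9. It was followed by regions on chromosome 4 (1593621 to 1595467; scores 156 and 112), chromosome 18 (76751835 to 76754631; 221 and 99.1) and chromosome 1 (1353147 to 1357333; 131 and 125). Next was one on chromosome 21 (46719826 to 46724978), which measured 5153 bp. Of the 5 others among the first 10, a pair lay on the short arm of chromosome 4 (1685842 to 1687841 and 2733190 to 2735752). The last 3 were on chromosome 11 (828061 to 832503), chromosome 3 (195346339 to 195347599) and chromosome 20 (62160314 to 62162480). Thus 3 of the first 10 were on the short arm of chromosome 4. MT4 had few peaks on this chromosome (123 in its interior, where the shorter list of MT1 had 132). The part of this in the wild-type-only regions was not tested, and the class also needs MT1 and MT2 to lack a peak. The 10 had mean percentiles from 58.9 to 42.3, all below the 10 strongest common regions, whose lowest was 91.9.

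By share of peaks, all mutated libraries lay below both wild-type libraries at 6 of the 39 ends with a peak (15.4%), where 9.52% of all autosomal 3 Mb windows with a peak did so. They lay above both at 2 ends (5.13%), against 6.23% of windows. The 6 were the long-arm ends of chromosomes 5, 8, 13, 14, 20 and 21. The one on chromosome 13 had at most 6 peaks in any library. There MT4 counted as lower than WT bulk with 6 peaks against 5. A window can count as lower only if both wild-type lists have a peak in it. Each of the 39 ends met this condition. WT bulk lacked a peak in 152 of 907 interior windows, among them the 95 without any region. The 9.52% is therefore not a like-for-like background. At the long-arm end of chromosome 14 (103173904 to 106173903), MT1 and MT2 had no peak, where WT bulk had 13, WT transfected 7 and MT4 11. At the long-arm end of chromosome 21 the share of a list's autosomal peaks was 0.571% in WT bulk and 0.476% in WT transfected. It was 0.392% in MT1, 0.387% in MT4 and 0.142% in MT2. The 2 ends with higher shares, the short-arm end of chromosome 9 and the long-arm end of chromosome 4, had at most 6 peaks in any library. MT1 and MT2 are the shortest lists, and their part in these counts was not tested.

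On chromosomes 4 and 7 single libraries had few peaks for the length of their lists, and the ends of these chromosomes were therefore looked at on their own. The interior of chromosome 4 held 123 peaks in MT4, against 271 in WT bulk, 201 in WT transfected, 132 in MT1 and 75 in MT2, and that of chromosome 7 held 288 in WT transfected, against 513 in WT bulk, 773 in MT4, 232 in MT1 and 133 in MT2. At the short-arm end of chromosome 4, MT4 held 11 peaks where WT bulk held 19, WT transfected 21, MT1 11 and MT2 5. MT4 recovered 7 of 14 regions there (50%; 95% Wilson interval 26.8 to 73.2%), close to its 50.3% in the interior of the chromosome. MT1 recovered 7 of 14 as well, WT bulk 9 of 12, WT transfected 9 of 11 and MT2 4 of 15. At the long-arm end only the site with the highest score was held by 2 or more other libraries, and MT4 held it.

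At the short-arm end of chromosome 7, WT transfected held 3 peaks, against 12 in WT bulk, 6 in MT1, 2 in MT2 and 19 in MT4. It recovered 2 of 8 regions (25%; 7.15 to 59.1%). At the long-arm end it recovered 10 of 20 (50%; 29.9 to 70.1%), against 54.5% in the interior of the chromosome. With so few regions the intervals of both ends overlap. Leaving out chromosomes 4 and 7 changed the mean log2 density ratio from 0.85 to 0.82 and the mean width difference from 258 to 218 bp.

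Peaks at the ends lay nearer to their neighbours, which is not independent of their higher density. The median gap from a peak to the nearest peak of the same list was 53.6 kb at the ends and 75.3 kb in the interior in WT bulk, 68.4 and 98.6 kb in WT transfected, 120 and 156 kb in MT1, 39.9 and 51.5 kb in MT4, and 284 and 340 kb in MT2. Tight clusters were not more common in every library. A neighbour within 10 kb was found for 11.5% of end and 11% of interior peaks in WT bulk, 11.1% and 8.99% in WT transfected and 16.5% and 14.4% in MT4, and for 5% and 7.25% in MT1 and 4.26% and 5.86% in MT2.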

How the data were processed

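MeDIP-seq was made in 5 K562 cultures. The submitters' processing notes name Bowtie 1.1.1, edgeR and the build hg19. How reads matching several places were handled, which limit the caller used and whether input DNA was sequenced is not given in the sources used here. In all, the authors deposited 1 peak list per library, so peaks were called for each library alone. Each line gives start and end in bp and a score per peak, as deposited by the authors, with names that begin with MACS. The lowest score kept was 90. The labels' protocols state paired-end sequencing and a single approximate read number for all samples; read totals of each library are not given, so the depth behind a peak is unknown.

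Peaks were assigned to end zones (3 Mb) or the interior, and lists were merged at an overlap of 1 bp (scipy 1.17.1, numpy 2.4.6 and pandas 2.3.3 under Python 3.11.15). The functions were checked on simulated lists. Zones were compared by exact sign-flip tests over 5 libraries and genotypes by exact permutation tests, with Benjamini-Hochberg adjustment. Alternatives were limits of 1, 2 and 5 Mb, equal list length, scores at or above the median of all peaks, other overlap rules, omission of acrocentric short arms or of chromosomes 4 and 7, and leaving out each library.

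The members, lists and tests were chosen with earlier results of these data known. Named regions were the 10 strongest common, the 10 strongest wild-type-only and mutant-only, the 5 widest and the 5 outermost end regions, the top end peak of each library, the 6 richest ends and the empty ones, and the ends of chromosomes 4 and 7. Gene annotation and sequence in hg19 were not used here, so gene lists were not analysed.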

Additional observations from a re-analysis of the deposited data

Results flagged for a closer look

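The X chromosome lay outside the comparisons and also had peaks within 3 Mb of its ends, stretches that make up 3.88% of the length of X up to its outermost peak. WT bulk had 7 of its 86 X peaks there (8.14%; 95% Wilson interval 4.0 to 15.9%), WT transfected 5 of 55 (9.09%; 3.95 to 19.6%) and MT4 8 of 121 (6.61%; 3.39 to 12.5%). MT1 had 3 of 33 and MT2 none of 17. These counts were noted because they exceed the 3 that a count of 0 allows, which says nothing of crowding at the ends; the share of length lies within the interval of MT4 and just below those of WT bulk and WT transfected. All but 1 of these peaks, in MT4, were at the long-arm end.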

How the results depend on the processing

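The means of the 5 differences between end zones and interior kept their sign under every alternative, though no test could pass 0.05. Agreement of all 5 libraries was lost for width at 1 Mb (exact permutation p = 0.25) and without chromosomes 4 and 7 (p = 0.125), and for score percentile at equal list length (p = 0.125). Ranges over all settings were 0.50 to 1.23 for the log2 density ratio, 98.6 to 314 bp for width, -9.71 to -6.37 for score percentile, -11.1 to -2.76 percentage points for sharing and -8.37 to -2.66 for recovery. Genotype differences were less stable. All mutated libraries lay below both wild-type libraries in log2 density ratio at 5 Mb (difference -0.167) and at or above the median score (-0.268). The same held for end share, with -1.15 percentage points in both settings. In sharing, all mutated libraries lay above both at or above the median score (6.28 percentage points). Each of these gave p = 0.2, the smallest possible (exact permutation test, two-sided, not adjusted). At equal list length, the genotype difference in log2 density ratio was 0.047 and that in end share 0.196 percentage points, both reversed. That in score percentile was reversed at a limit of 2 Mb (1.91), at equal length (5.26) and at or above the median score (4.60), and ran from -1.67 to 0.87 without 1 library (positive without WT bulk or MT2). That in sharing ran from -0.62 to 6.10 without 1 library (negative without WT transfected or MT4). Wild-type-only end regions numbered 11 at 1 Mb, 5 at equal length, 18 above the median score and 33 to 188 without 1 library (110 without WT bulk, 188 without WT transfected, 106 without MT4). Mutant-only end regions numbered 1 at 5 Mb, 4 at equal length and 1 to 17 without 1 library (17 without MT2). Common end regions numbered 25 at 1 Mb, 25 at equal length, 17 above the median score and 54 to 118 without 1 library (118 without MT2). Fewer libraries to satisfy raise such counts by construction, and shares over all autosomal regions were not computed under these settings. Zones were compared within each library. The labels do not pair wild-type with mutated cultures, so the genotype comparisons were unpaired.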
